A study of Mus musculus with 2 samples.

Results

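The genes described here are the guidance ligands and receptors: semaphorins and their plexin receptors, Slits and Robos, netrins and Unc5 receptors, and ephrins and Eph receptors. They were taken by gene symbol from the array's annotation, using only probe sets that name 1 gene. The symbol rule found 68 of the 18193 genes named on the array, and 34 of the 68 were measured, against 10267 of all 18193 genes. A gene was measured when its log2 intensity was 5 or more on at least 1 array. The probe set with the highest mean log2 over both arrays stood for the gene. All 34 measured members reached that floor on both arrays. The rule also caught 3 genes by spelling alone, which are no guidance ligands or receptors: Unc50, Unc5cl and the antisense transcript Plxna4os1. Of these 3 only Unc50 was measured, which leaves 33 measured guidance genes of 65.

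The cells were urogenital sinus mesenchyme (UGM) from C57BL/6 males labelled day 16; this stroma sends the signals that induce prostate buds in the adjoining epithelium. The treated culture received testosterone (12 nM) and estradiol-17 beta (120 pM), abbreviated T+E2, in RPMI medium with 5% dextran charcoal-stripped serum and 5 µg/ml Plasmocin for 72 h. The untreated culture had the same steroid-depleted medium and antibiotic for the same time and no added hormone. Each condition has 1 array. The titles give 24 h where the protocols and characteristics give 72 h, and the descriptions put the untreated cells at confluency and the T+E2 cells near it. The labels do not say how many animals or cultures stood behind each RNA sample.

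Guidance cues are secreted or membrane-bound proteins that attract or repel growing axons and migrating cells through receptors on the cell surface. Semaphorins signal through plexins, with neuropilins as co-receptors for the secreted class. Slits bind Robo receptors, netrins bind Dcc, neogenin and Unc5 receptors, and ephrins and Eph receptors signal in both directions between touching cells. Outside the nervous system the same proteins act in vessel growth, in epithelial branching and in keeping cell populations apart.

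Each array held 45101 probe sets, controls included, of which 42.1% on the T+E2 array and 42.9% on the untreated array reached the floor. Of 12 mesenchymal markers, 11 were measured and none was 2-fold different; Thy1 was under the floor on both arrays. Endothelial and neural cells also use guidance genes. Of 8 endothelial markers only Tek was measured (log2 10.02 with T+E2 and 9.82 untreated), and Pecam1, Cdh5, Tie1, Kdr, Emcn, Esam and Cldn5 lay near background. Of 9 neural and Schwann cell markers on the array, S100b and Map2 were measured and neither was 2-fold different. Of 6 smooth muscle markers Acta2 (log2 difference 0.13) and Tagln (-1.43) were measured. All 7 leukocyte markers lay under the floor. Of 10 epithelial markers, Cdh1 (7.57 with T+E2 and 5.37 untreated) and Trp63 (8.46 and 7.99) were measured. The marker lists' summed intensities with T+E2 and untreated were 168655 and 154676 for mesenchyme, 578 and 333 for epithelium, 1071 and 934 for endothelium and 2848 and 2715 for neural cells. The part of such cells in the differences below was not tested.

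Most measured guidance genes were higher with T+E2 by less than 2-fold. Of the 34 measured members, 28 had a positive log2 difference (T+E2 minus untreated), 5 a negative one and Efna3 one of 0. A positive difference was found in 55.8% of all measured genes. The 3 members at least 2-fold higher were the ligand gene Slit3 and the receptor genes Unc5b and Plxna1; these are 8.82% of the measured members, beside 4.96% of all measured genes. None was at least 2-fold lower, beside 4.01% of all measured genes. The median difference of the members was 0.40 (interquartile range 0.17 to 0.69), beside 0.07 (-0.32 to 0.45) over all measured genes. With 1 array per condition no difference can be set against the spread between cultures, and no p-value was computed. In such bulk RNA, fewer cells of a type and less RNA per cell cannot be told apart. All 3 passed 2-fold narrowly: after centring on the median of all measured genes their log2 differences were 0.99, 0.99 and 0.97 for Slit3, Unc5b and Plxna1, and none reached 2-fold, beside 3.97% of all genes at least 2-fold higher.

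**Figure D1:**
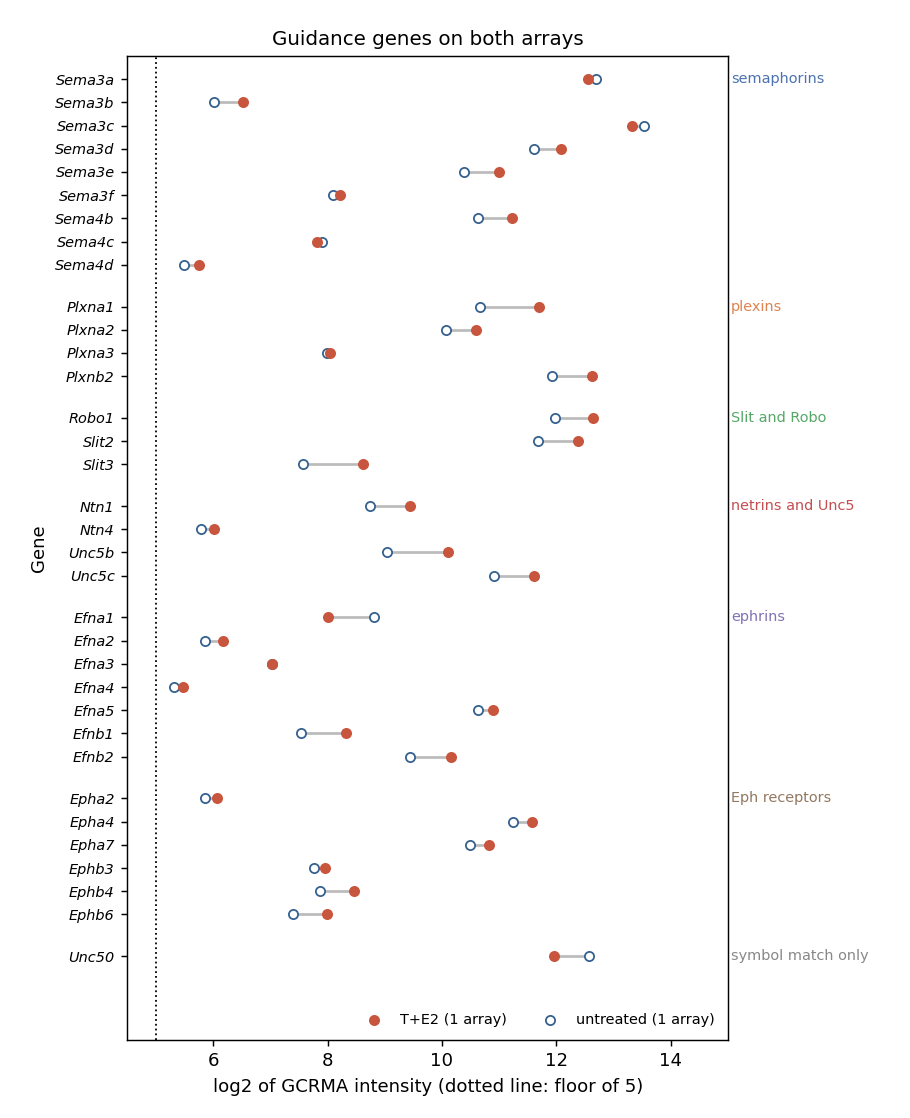
Log2 of GCRMA intensity (horizontal) of the 34 measured members, grouped by family, on the T+E2 array (filled) and the untreated array (open), 1 array each; the dotted line is the floor of 5. The T+E2 point lies to the right for 28 members and to the left for 5, of which Efna1 is the farthest apart.

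Among the ligands, Slit3 was higher with T+E2, and Slit2 was higher by its brightest probe set. Slit3 encodes a large secreted repellent of the Slit family. Its intensity was 395 with T+E2 and 189 in untreated cells, a 2.09-fold difference (log2 1.06) at percentile 96.0 of all measured genes. A single probe set represents it. Slit2, the better known paralog, was at 5313 with T+E2 and 3284 untreated (1.62-fold). Slit1 was under the floor on both arrays. Robo1, a receptor of both Slits, was at 6409 with T+E2 and 4038 untreated (1.59-fold). Robo2, Robo3 and the endothelial Robo4 were under the floor on both arrays. By their brightest probe sets the 3 measured genes of this pair of families all lay on the higher side. Their log2 differences were 0.67 to 1.06. After removal of a trend with gene length across the genome (genomic span), 2 of the 3 lay on that side. Of all measured genes 55.8% and 51.3% did.

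A second measured probe set of Slit2 went the other way. It stood at 54.1 with T+E2 and 325 untreated, 6.01-fold lower (log2 -2.59), while the probe set that stands for the gene was higher. The remaining Slit2 probe set lay under the floor on both arrays. The transcripts each probe set detects were not examined, so for Slit2 the direction depends on the probe set. With the mean of its probe sets the log2 difference of Slit2 was -0.62.

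The promoters of the Slit genes, of Unc5b and of Efna1, the member with the lowest difference, are shown as RefSeq windows of build GRCm38.p6, from 250 bases before to 50 bases after a gene start. They are shown because Slit3 and Unc5b are members past 2-fold and Efna1 lies at the other end. Slit2, which did not pass 2-fold, is shown as well. For Plxna1, also past 2-fold, no window was at hand. Slit3 is at chr11:35121206-35121505 on the plus strand, Unc5b at chr10:60831532-60831831 on the minus strand, Slit2 at chr5:47982905-47983204 on the plus strand and Efna1 at chr3:89280902-89281201 on the minus strand. Each is written 5′ to 3′ in the direction of its gene, and capitals mark the GC box GGGCGG and the TATA box TATAAA on either strand.
Slit3: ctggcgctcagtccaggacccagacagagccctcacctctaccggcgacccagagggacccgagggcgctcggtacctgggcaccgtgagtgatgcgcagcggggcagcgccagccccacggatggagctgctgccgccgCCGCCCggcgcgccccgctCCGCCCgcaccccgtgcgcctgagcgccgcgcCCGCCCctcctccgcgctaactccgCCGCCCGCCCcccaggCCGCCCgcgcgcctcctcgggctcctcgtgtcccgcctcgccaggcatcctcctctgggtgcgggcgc
Unc5b: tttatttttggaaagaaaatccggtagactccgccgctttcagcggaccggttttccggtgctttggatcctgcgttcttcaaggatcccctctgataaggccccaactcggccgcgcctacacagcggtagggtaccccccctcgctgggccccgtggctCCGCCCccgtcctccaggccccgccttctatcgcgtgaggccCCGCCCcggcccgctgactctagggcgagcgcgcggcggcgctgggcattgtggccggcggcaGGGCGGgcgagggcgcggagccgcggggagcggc
Slit2: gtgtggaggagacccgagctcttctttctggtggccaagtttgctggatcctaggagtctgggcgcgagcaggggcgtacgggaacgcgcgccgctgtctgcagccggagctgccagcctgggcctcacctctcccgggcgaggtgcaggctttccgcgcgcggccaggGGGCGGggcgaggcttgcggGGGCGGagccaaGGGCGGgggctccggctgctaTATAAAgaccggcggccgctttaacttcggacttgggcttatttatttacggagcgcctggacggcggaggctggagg
Efna1: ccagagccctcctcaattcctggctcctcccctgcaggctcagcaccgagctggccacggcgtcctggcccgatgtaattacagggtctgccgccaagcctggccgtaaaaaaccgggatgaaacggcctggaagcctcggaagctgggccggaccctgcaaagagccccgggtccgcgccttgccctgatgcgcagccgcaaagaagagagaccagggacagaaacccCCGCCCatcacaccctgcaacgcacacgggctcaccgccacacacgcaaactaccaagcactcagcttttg

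The Slit3 window held 6 GC boxes (overlapping ones counted), Unc5b and Slit2 3 each and Efna1 1. Slit2 also held 1 TATA box. None of the 4 held the androgen response element half-site AGAACA, the estrogen response element half-site GGTCA or the AP-1 site TGANTCA, searched on both strands. Promoter windows were at hand for 30 of the 34 measured members, with 38 windows in all. The GC box occurred in 78.9% of these 38 and in 35.7% of all 32851 windows, with a median G and C content of 65.5% and 52.7%. The 38 windows belong to measured genes only, while the 32851 include genes that were not measured. Windows of all measured genes were not counted apart, so these shares do not compare like with like. The half-site AGAACA occurred in 10.5% of member windows and 19% of all windows, and GGTCA in 36.8% and 40.5%. For TGANTCA the shares were 5.26% and 7.81%, and for TATAAA 5.26% and 13.6%. Some member shares rest on few windows: 4 for AGAACA, from Plxna3 and Sema4d, and 2 each for TGANTCA and TATAAA. The full androgen and estrogen response elements, each a pair of such half-sites, occurred in 0 member windows and in 0.00913% and 0.07% of all windows. For elements this rare, 38 windows are too few to tell the members from other genes. A match is a stretch of letters and not a bound site.

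All 4 measured genes of the netrins and their Unc5 receptors were higher with T+E2, beside 55.8% of all measured genes. With the span trend removed 3 of the 4 were, beside 51.3%. Unc5b, a repulsive netrin receptor that also acts in vessels, was at 1103 with T+E2 and 528 untreated (2.09-fold, log2 1.06, percentile 95.9). Its second probe set lay under the floor. Unc5c, a related netrin receptor, was at 3130 with T+E2 and 1927 untreated (1.62-fold), and both of its probe sets were higher (0.70 and 0.93). Ntn1, the gene of the founding netrin ligand, was at 699 with T+E2 and 429 untreated (1.63-fold). Ntn4, whose product is found in basement membranes, was at 64.2 and 55.3 (1.16-fold), near the floor. Unc5a, Unc5d, Ntn3 and Ntn5 were under the floor on both arrays. The 4 measured genes had a median difference of 0.70.

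All 4 measured plexins, the semaphorin receptors, were on the higher side, beside 55.8% of all measured genes. Their differences ran from 0.05 to 1.04. After centring on the median of all genes 3 of the 4 were on that side, beside 50%. Plxna1, a signalling partner of the neuropilins, was at 3323 with T+E2 and 1615 untreated (2.06-fold, percentile 95.6). Its second probe set lay under the floor, and with the mean of its probe sets the log2 difference was 0.53. Plxnb2, a receptor of transmembrane semaphorins, was at 6318 with T+E2 and 3881 untreated (1.63-fold). Plxna2 was at 1543 and 1073 (1.44-fold), with all 3 measured probe sets higher. Plxna3 was at 264 and 255 (1.03-fold), so its arrays were nearly level. Plxna4, Plxnb1, Plxnb3, Plxnc1 and Plxnd1 were under the floor on both arrays. The plexin median was 0.61.

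Semaphorins differed in both directions and none reached 2-fold. Of the 9 measured, 6 lay above 0, beside 55.8% of all measured genes, and 5 with the span trend removed, beside 51.3%. Of 20 on the array those measured were Sema3a to Sema3f, which encode secreted ligands, and Sema4b, Sema4c and Sema4d, which encode membrane-bound ones. Sema3e was highest in difference, at 2043 with T+E2 and 1340 untreated (1.52-fold). Of its 4 probe sets 3 were higher and 1 was lower (-0.23). The receptor gene through which Sema3E acts directly, Plxnd1, lay below the floor. Sema4b was at 2386 with T+E2 and 1591 untreated (log2 0.58). Sema3b (0.49) and Sema3d (0.47, both probe sets higher) followed. Sema4d (0.26) and, by its brightest probe set, Sema3f (0.12) lay closer to 0. The other Sema3f probe sets stood at 0.54 and 0.71.

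The 3 lower semaphorins, Sema3c, Sema3a and Sema4c, stayed under 1.5-fold, but with the span trend removed Sema3a and Sema3c stood at -0.81 and -0.70 and Sema4c at 0.0041. Sema3c, a secreted ligand with a role in heart outflow tract development, was at 10196 with T+E2 and 11883 untreated (log2 -0.22). Its second probe set was lower by more, at 399 with T+E2 and 647 untreated (-0.70). Sema3a, the classical axon repellent, was at 6027 with T+E2 and 6604 untreated (-0.13), with 2 of 3 probe sets lower. Sema4c was at 224 and 239 (-0.09). The semaphorin median was 0.26, below that of the plexins, and no test of this gap was possible.

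The floor left 11 semaphorins unmeasured: Sema3g, Sema4a, Sema4f, Sema4g, Sema5a, Sema5b, Sema6a, Sema6b, Sema6c, Sema6d and Sema7a. Sema5a came nearest to the floor, at log2 4.99 with T+E2 and 3.31 untreated, and Epha1 stood at 4.59 and 4.39. Just inside it were Efna4 (5.47 with T+E2 and 5.31 untreated) and Sema4d (5.76 and 5.50). With no floor Sema5a would be another gene past 2-fold, on values below the level used here.

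Ephrins of the membrane-spanning B class were higher with T+E2, while the lipid-anchored A class held the lowest member. Efnb1 was at 320 with T+E2 and 186 untreated (1.72-fold, log2 0.78), and its other probe sets lay under the floor. Efnb2, the arterial marker and ligand of EphB4, was at 1148 with T+E2 and 694 untreated (1.65-fold, 0.73). A second Efnb2 probe set passed 2-fold, at 670 and 318 (1.07). Efnb3 was under the floor.

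Efna1 was lower, at 257 with T+E2 and 449 untreated (1.75-fold lower, log2 -0.81, percentile 7.82), and its second probe set was lower as well (-0.26). Efna3 stood at 131 on both arrays by its brighter probe set, and its other probe set was higher by 0.86. Efna2 (0.31), Efna4 (0.16) and Efna5 (0.26) were slightly higher. The A-class median was 0.16 over 5 genes, and the B-class values were 0.78 and 0.73.

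All 6 measured Eph receptors lay on the higher side, by 0.18 to 0.60, and 4 of the 6 with the span trend removed. Of all measured genes 55.8% and 51.3% did. Ephb6, whose kinase domain is inactive, was at 254 with T+E2 and 168 untreated (1.52-fold). Ephb4, the receptor of ephrin-B2 in veins, was at 351 with T+E2 and 233 untreated (1.51-fold). Ephb3 was at 248 and 218 (1.14-fold). The A-class receptors Epha4 (0.34), Epha7 (0.32) and Epha2 (0.20) were higher by less than Ephb6 and Ephb4. For Epha4, 1 of 4 measured probe sets was lower, and for Epha7 1 of 3. Epha1, Epha3, Epha5, Epha6, Epha8, Epha10 and Ephb1 were under the floor. Ephb2 was not among the genes found by the symbol rule.

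**Figure D2:**
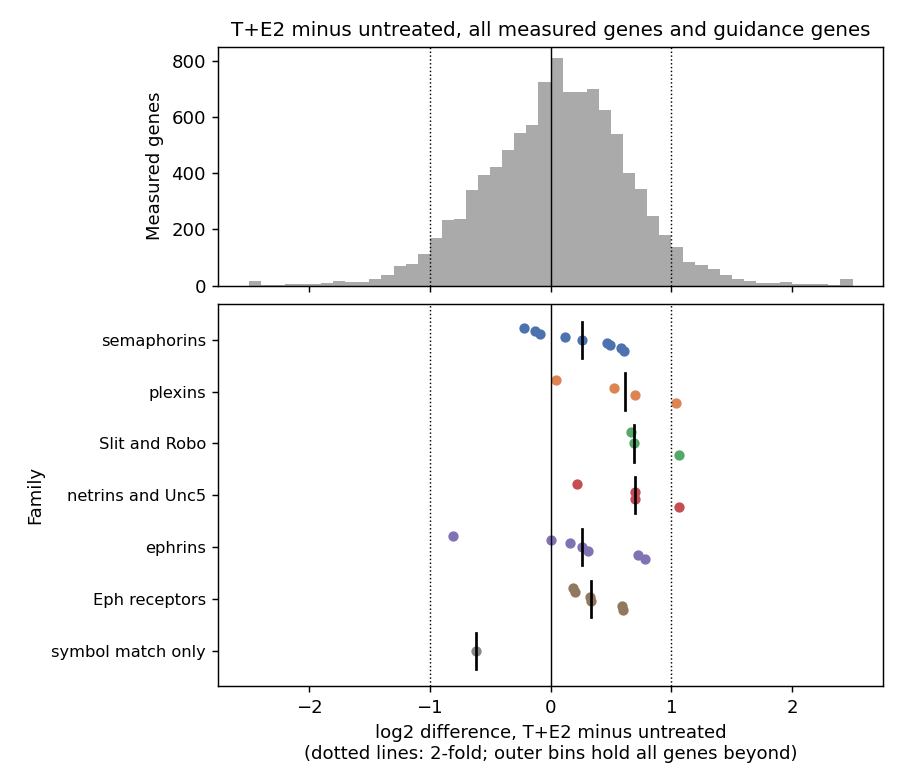
Top, the number of measured genes by log2 difference (T+E2 minus untreated, 10267 genes); bottom, each measured member by family, with the family median as a vertical bar and dotted lines at 2-fold. Family medians run from 0.26 for semaphorins and ephrins to 0.70 for netrins and Unc5, and Unc50, matched by spelling only, lies at -0.62.

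By role, all 13 measured receptors lay above 0, with a median of 0.59, and 15 of 20 measured ligands did, with a median of 0.29. Of all measured genes 55.8% lay above 0. After centring 12 receptors and 15 ligands did, beside 50% of all genes. With the span trend removed 10 receptors and 13 ligands did, beside 51.3% of all genes. The medians were then 0.16 for receptors and 0.08 for ligands. Unc50, which encodes a Golgi membrane protein and entered by its symbol, was at 3961 with T+E2 and 6083 untreated (log2 -0.62), with all 3 probe sets lower. Without it the median of the 33 guidance genes was 0.47.

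Of 14 members with more than 1 measured probe set, 9 had none on the opposite side and 5 were split: Slit2, Sema3a, Sema3e, Epha4 and Epha7. Among all genes with several measured probe sets, the median SD between them was 0.22, which exceeds the size of the difference in 10 members, among them Sema3a, Sema3c, Sema4c and Plxna3.

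**Figure D3:**
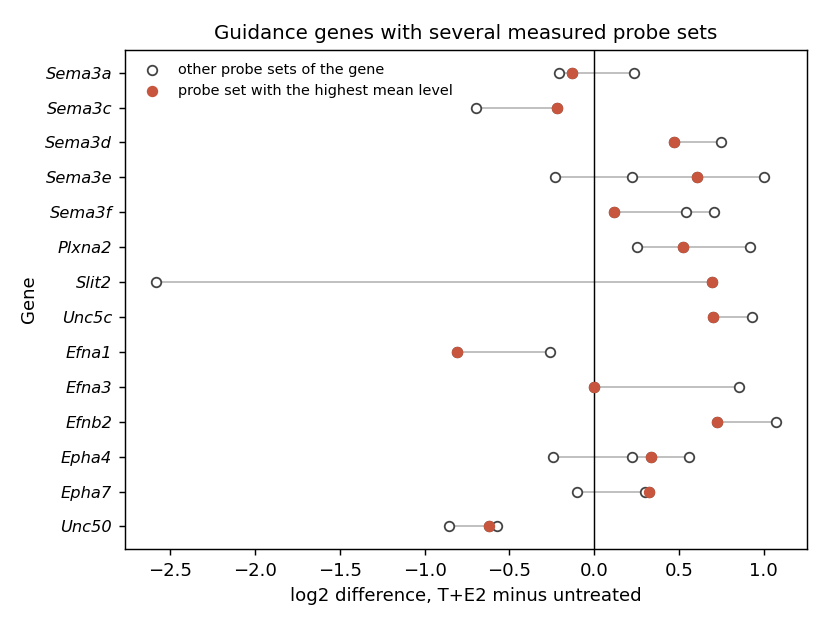
Log2 difference (T+E2 minus untreated, after the floor) of each measured probe set of the 14 members that have several; the filled point is the probe set that stands for the gene. Most genes keep to 1 side of 0, and Slit2 has the widest spread, from -2.59 to 0.69.

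The difference between the arrays moved with the genomic span of a gene, its length from first to last base, and many guidance genes are long. The median span was 45.2 kb for measured members and 24.5 kb for all measured genes, and Robo1 spans 1020 kb. The correlation of the difference with log10 span was 0.375 over the 34 members and 0.356 over 10237 genes, where all points share the same 2 arrays. Of the 15 members of 100 kb or more, 13 lay above 0, with a median of 0.47; among all measured genes of that span 83.2% did, with a median of 0.52. In that group 1 member was at least 2-fold higher and 0 were 2-fold lower, beside 16.2% and 1.17% of all genes of that span. Of the 19 shorter members, 15 lay above 0, with a median of 0.31; among all shorter genes 51.7% did, with a median of 0.02. Here 2 members were at least 2-fold higher and 0 were 2-fold lower, beside 3.22% and 4.42% of all shorter genes. The long members thus stood near other long genes, and the short ones above the median of other short genes.

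With a smooth trend on span subtracted, the median of the members was 0.09, beside 0.01 over all genes, and 23 of 34 lay above 0, beside 51.3%. No member stayed at 2-fold, beside 2.94% of all genes at least 2-fold higher: Plxna1 stood at 0.87, Unc5b at 0.78 and Slit3 at 0.34. Efnb1 (0.87), Plxnb2 (0.68), Ephb6 (0.66), Sema3b (0.59), Ephb4 (0.58) and Efnb2 (0.57), all short genes, also kept values above 0.5. Slit2 (0.08), Unc5c (0.07), Robo1 (-0.15) and Ntn1 (0.20) came close to 0. Sema3a (-0.81) and Sema3c (-0.70) then lay lowest, with Efna1 (-0.67). The part of gene span in the guidance differences was not tested further.

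**Figure D4:**
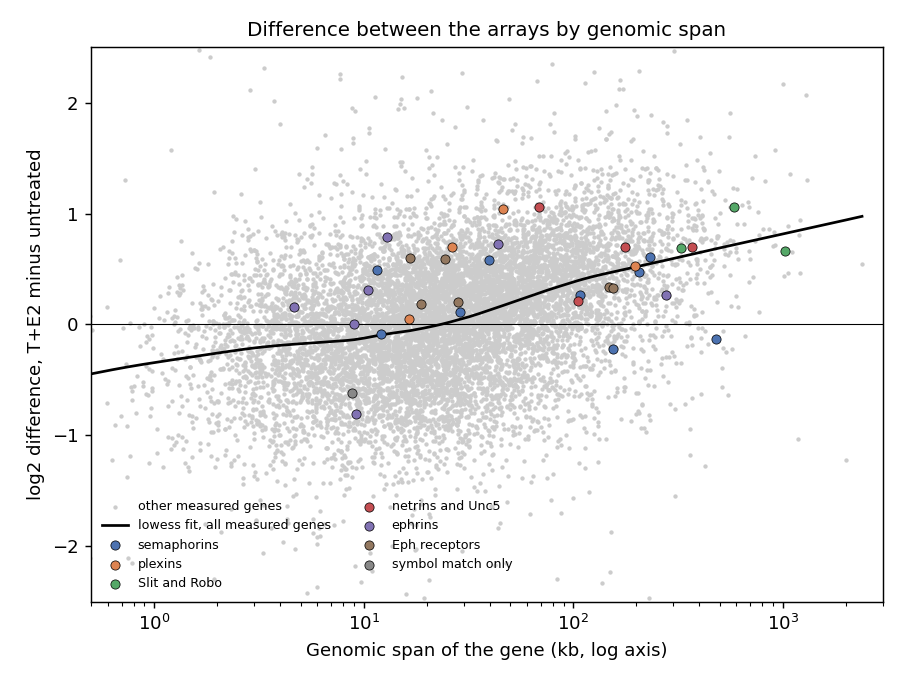
Log2 difference (T+E2 minus untreated) against genomic span in kb (log axis) for all measured genes (grey; values beyond ±2.5 are not drawn), with a lowess fit (line) and the 34 members coloured by family. The fit passes -0.12 at 10 kb and 0.38 at 100 kb; Sema3a and Sema3c lie well below it among long genes, and Efnb1 well above it among short ones.

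A pair of further gene sets of pathway genes were read on the same arrays, listed by their role, with the Nrp2 value already known. Of 30 co-receptors and further cues, 18 were measured, 17 (94.4%) lay above 0, beside 55.8% of all measured genes, and the median was 0.60. With the span trend subtracted 12 did, beside 51.3% of all genes. Among the 17, Flrt1 reached the floor only with T+E2 (log2 5.23, and 4.37 untreated), so its difference of 0.23 is a lower bound. The 3 at least 2-fold higher (16.7%, beside 4.96%) were Rgma, Nrp2 and Rgmb, and 0 were 2-fold lower (beside 4.01%). Rgma encodes a repulsive guidance molecule that binds neogenin and BMPs. It was at 176 with T+E2 and 69.9 untreated (2.52-fold, 1 measured probe set). Rgmb, its paralog, was at 1355 with T+E2 and 594 untreated (2.28-fold), with 4 of 4 probe sets higher. Their receptor gene Neo1 was at 4590 with T+E2 and 2786 untreated (1.65-fold). Rgma and Rgmb kept log2 differences of 1.17 and 1.16 with the span trend subtracted.

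Nrp2, a co-receptor of class 3 semaphorins, was at 983 with T+E2 and 419 untreated (2.35-fold, 0.81 with the span trend subtracted). Nrp1, the other neuropilin, was at 7509 and 4933 (1.52-fold). Dcc, the classical netrin receptor, was under the floor on both arrays, as were Kdr, L1cam and Dscam. Bsg, the only lower gene of the set, stood at -0.38.

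Of 49 cytoplasmic effectors listed, 48 were on the array and 39 were measured; 4 (10.3%) were at least 2-fold higher, 0 were 2-fold lower and the median was 0.44. All measured genes gave 4.96% and 4.01%. Of the 39, 34 (87.2%) lay above 0, beside 55.8% of all measured genes. With the span trend subtracted 26 did, beside 51.3%. The effectors include 23 genes of 100 kb or more, a span at which 83.2% of all genes lay above 0 and 16.2% passed 2-fold on that side. Arhgef11 encodes a guanine nucleotide exchange factor that binds B-class plexins. It was at 449 with T+E2 and 77.4 untreated (5.80-fold, log2 2.54, and 2.11 with the span trend subtracted), and both probe sets were higher. Its relative Arhgef12 was at 6106 and 3567 (1.71-fold). Vav3 (2.71-fold), an exchange factor used by Eph receptors, Mical2 (2.07-fold), of the family of plexin-linked oxidoreductases, and Srgap3 (2.05-fold), of the Slit-Robo GTPase-activating family, also passed 2-fold. Mical2 and Srgap3 each rest on 1 measured probe set. With the span trend subtracted Vav3 stood at 0.82, Mical2 at 0.61 and Srgap3 at 0.49. On the lower side, the adaptor gene Nck1 (-0.96), Gipc1 (-0.95) and Cdk5 (-0.70) came closest to 2-fold. After the same subtraction Nck1 was past 2-fold lower, at -1.16, while Gipc1 stood at -0.88 and Cdk5 at -0.64. The GTPase genes Rhoa (-0.08), Rac1 (0.26) and Cdc42 (0.10) differed little by their brightest probe sets. Of the measured probe sets, 1 of 3 was higher for Rhoa, 1 of 2 for Rac1 and 1 of 3 for Cdc42.

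**Figure D5:**
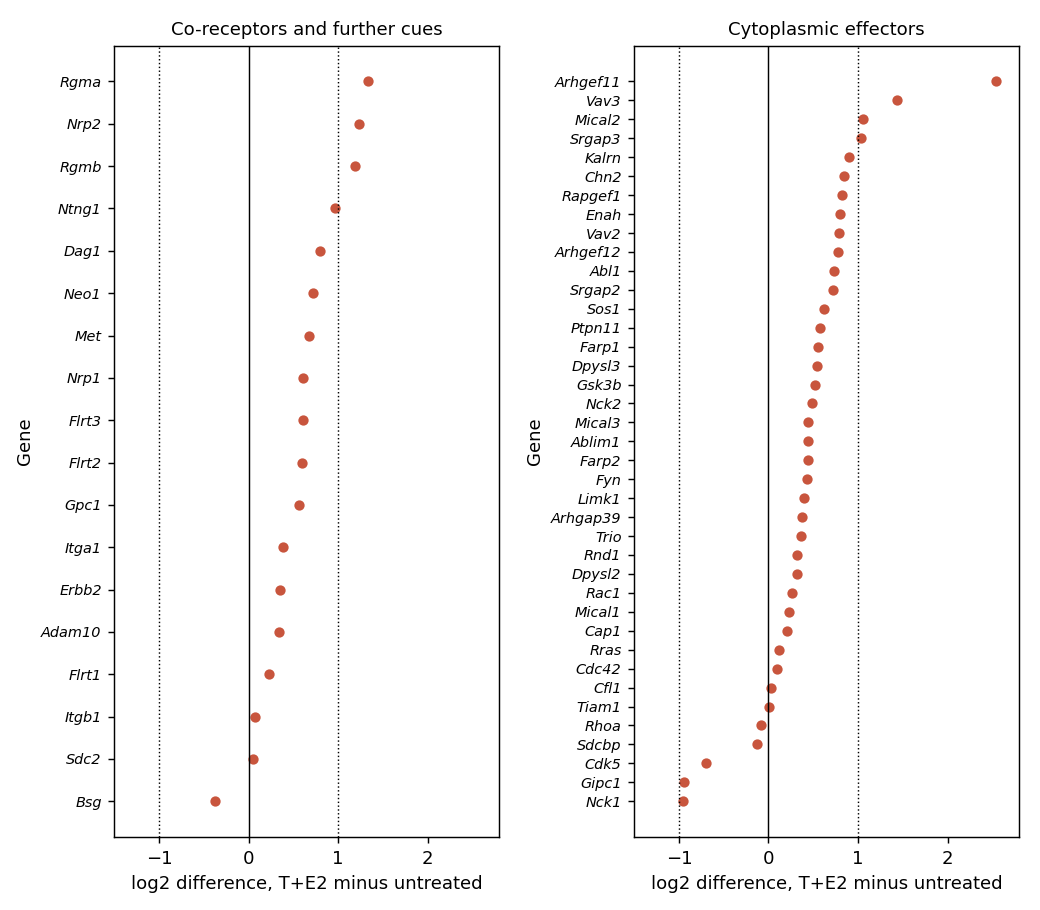
Log2 difference (T+E2 minus untreated) of the 18 measured co-receptors and further cues (left) and the 39 measured effectors (right), sorted by difference, with dotted lines at 2-fold. Rgma, Nrp2 and Rgmb pass the right-hand line on the left, and Arhgef11 stands apart at 2.54 on the right.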

How the data were processed

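RNA of 1 untreated and 1 T+E2 culture was hybridised to 1 mouse expression array each. The authors deposited linear intensity values made with GCRMA, per the submitters' processing notes; GCRMA corrects background by probe sequence, quantile-normalizes and summarises probe sets (version not given in the sources used here). Low values collapse near a common background under GCRMA.

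Here log2 was taken of the deposited intensities, with no further scaling. Values under a floor of 5 (intensity 32) were set to it before the difference, T+E2 minus untreated, was formed. Counts use 2-fold. Manufacturer's control probe sets were left out. Genes were named from the platform annotation, and all 68 member symbols matched the RefSeq table of assembly GRCm38.p6, which gave genomic span and promoter windows. The span trend is a lowess fit (fraction 0.3) over all measured genes, by statsmodels 0.14.6 in Python 3.11.15 with numpy 2.4.6 and pandas 2.3.3. The counting and the trend fit were tested on simulated arrays. Text names members past 2-fold, and the 2 largest differences of each subfamily; in the other pathway lists, those past 2-fold. Genes named beyond this were chosen after their values were seen. Members and lists were chosen with earlier results of these data known. Precision is limited by having 2 arrays.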

Additional observations from a re-analysis of the deposited data

How the results depend on the processing

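No paired analysis was possible because each group has 1 array. The alternatives were other floors, the mean of a gene's probe sets, leaving out 2 classes of probe set, centring, removal of trends with span or level, and a 1.5-fold threshold; a further one, chosen after seeing the data, left out Unc50, Unc5cl and Plxna4os1. Family medians stayed above 0 under the 8 alternatives in which they were recomputed, all but the last 2. The count of members 2-fold higher was 3, but 0 with centring, 0 with the span trend removed, 1 (Unc5b) with the level trend removed and 1 (Slit3) with the mean of all probe sets. At 1.5-fold 13 were higher and 2 lower, beside 17.1% and 14.1% of all measured genes. With the span trend removed the median was 0.09 over all members, 0.0041 for semaphorins, 0.08 for Slit and Robo and 0.13 for netrins and Unc5. With no floor, where members near background enter, it was 0.05 over all members, 0.01 for semaphorins, 0.27 for plexins, 0.13 for Slit and Robo and 0.11 for netrins and Unc5. With the mean of all probe sets, the Slit and Robo median was 0.20, the value of Robo1, whose other probe sets lay under the floor. Slit2, with its probe set on the lower side included, stood at -0.62. Beyond the construction of each alternative, the cause was not tested. A median counted as stable when it moved by less than 0.22, the median spread (SD) among probe sets within a gene.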

Other observations

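The opposed Slit2 probe sets are not unique on these arrays. Of 4537 genes with more than 1 measured probe set, 219 had a probe set at least 2-fold different on the side opposite to the one that stands for the gene. In 33 genes, Slit2 included, the opposed probe set was lower by 2.59 (log2) or more. Slit2 was the only one of the measured guidance genes among the 219.

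The B-class Eph and ephrin genes found by the symbol rule did not include Ephb2. Of those found, Ephb1 and Efnb3 were not measured, and the other 5 lay above 0, beside 55.8% of all measured genes. Ephb3 did so by less than the 0.22 spread (SD) between probe sets. The spans of Efnb1, Efnb2, Ephb3, Ephb4 and Ephb6 were 13.0, 44.0, 18.7, 24.4 and 16.7 kb. Their log2 differences were 0.78, 0.73, 0.18, 0.59 and 0.60, and 0.87, 0.57, 0.22, 0.58 and 0.66 with the span trend removed. These genes were grouped after their values were seen, and no test was made.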
